A study of Arabidopsis thaliana with 12 samples.

Results

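The 9 loci of Arabidopsis thaliana whose precursors carry miR165 or miR166 were followed through 12 lists of RNA regions recovered by crosslinking and immunoprecipitation (CLIP-seq). They were chosen by name: MIR165A (AT1G01183), MIR165B (AT4G00885), MIR166A (AT2G46685), MIR166B (AT3G61897), MIR166C (AT5G08712), MIR166D (AT5G08717), MIR166E (AT5G41905), MIR166F (AT5G43603) and MIR166G (AT5G63715). Of 35566 genes with a peak in any list, 6 were among these 9 loci. Their 32 peaks, of 1037099 peaks in all, held 19291 reads. MIR165B, MIR166F and MIR166G had no peak in any library.

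The seedlings were Col-0, 14 days old and crosslinked with ultraviolet light, in 3 groups of 4 libraries: GFP-FIB1, CFP-FIB2 and, as the control, GFP alone. FIB1 and FIB2 are the plant's fibrillarins, nucleolar proteins that methylate the ribose of ribosomal RNA under the guidance of box C/D snoRNAs. The groups carry GFP fused to FIB1, CFP fused to FIB2, or unfused GFP. A CFP-only control was not analysed here, and the sources used here do not give the promoters, the number of plant lines or the state of the plant's own fibrillarin genes. Libraries were made with a small RNA kit, whose adapters take up short RNAs such as mature miRNAs. The markers of green tissue (RBCS1A, RBCS3B, RCA, LHCB1.3 and LHCB1.1) had peaks in every library, and 3 to 5 of 5 root markers did.

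A plant miRNA precursor folds into a hairpin, from which the nuclease DCL1, with HYL1 and SE, cuts a duplex of the mature miRNA and its partner strand, the star. The mature strand then guides an Argonaute protein to matching mRNAs. miR165 and miR166 pair with the mRNAs of the class III homeodomain leucine zipper (HD-ZIP III) transcription factors, and are known for setting the upper and lower sides of the leaf and for patterning the vasculature. AGO10 is known for binding miR165 and miR166 and keeping them from AGO1 in the shoot meristem.

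The 9 loci make only a pair of mature RNAs, shown 5′ to 3′ because the loci cannot be told apart within them; capitals mark the seed, bases 2 to 8.
miR166: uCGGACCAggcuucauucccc
miR165: uCGGACCAggcuucauccccc
The seed is shared. Counted from the 5′ end with miR166 as the reference, the only difference is U17C. The 21 nt of miR166 occur at 7 places in the genome, MIR166A to MIR166G, and those of miR165 at 2 places, MIR165A and MIR165B.

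All 4 precursors with more than 15 reads are shown next, from the RefSeq annotation of TAIR10.1, as the strand that is transcribed and with the mature miRNA in capitals. MIR166D is at chr5:2840622-2840734 (plus strand, 113 nt), MIR165A at chr1:78927-79037 (minus strand, 111 nt), MIR166A at chr2:19176108-19176277 (plus strand, 170 nt) and MIR166B at chr3:22922206-22922325 (plus strand, 120 nt). Each is a miRNA gene of its own.
MIR166D: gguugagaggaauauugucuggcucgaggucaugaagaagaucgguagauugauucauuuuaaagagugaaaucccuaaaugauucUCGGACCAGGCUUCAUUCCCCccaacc
MIR165A: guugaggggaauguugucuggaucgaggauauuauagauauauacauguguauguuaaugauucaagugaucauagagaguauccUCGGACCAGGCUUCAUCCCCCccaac
MIR166A: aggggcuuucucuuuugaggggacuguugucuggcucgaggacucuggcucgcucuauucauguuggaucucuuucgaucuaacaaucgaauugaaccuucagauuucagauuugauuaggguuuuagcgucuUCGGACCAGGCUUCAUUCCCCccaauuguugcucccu
MIR166B: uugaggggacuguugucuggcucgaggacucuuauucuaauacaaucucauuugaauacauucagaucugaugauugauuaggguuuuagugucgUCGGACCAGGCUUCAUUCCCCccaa
The mature miRNA lies in the 3′ arm in each, at bases 87 to 107 of MIR166D, 86 to 106 of MIR165A, 134 to 154 of MIR166A and 96 to 116 of MIR166B. MIR166B is shown again with the annotated star, bases 7 to 27, in capitals, because its peaks began there.
MIR166B: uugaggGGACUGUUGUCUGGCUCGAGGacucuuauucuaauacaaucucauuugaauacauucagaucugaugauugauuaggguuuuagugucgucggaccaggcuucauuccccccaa
The other loci are MIR165B (chr4:369831-370012, minus strand), MIR166C (chr5:2838635-2838773, plus strand), MIR166E (chr5:16775520-16775662, minus strand), MIR166F (chr5:17516301-17516405, plus strand) and MIR166G (chr5:25504798-25504919, plus strand).

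How far a read must reach past the mature miRNA to belong to 1 locus follows from these sequences. Counted from the first base of the mature miRNA, the sequence of MIR165A and that of MIR165B became unique in the genome at 22 nt. For the miR166 loci the length needed was 23 nt in MIR166C, 26 nt in MIR166D and MIR166E, 27 nt in MIR166F and MIR166G, and 28 nt in MIR166A and MIR166B. Counted from 1 base upstream of the miRNA, MIR166A parts from the others sooner: 15 nt of it are unique, against 18 to 27 nt at the other 8 loci. The sources used here do not say how reads with several matching places were assigned, so reads of MIR166D on the mature miRNA may belong to any miR166 locus, and those of MIR165A to MIR165B.

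**Figure D1:**
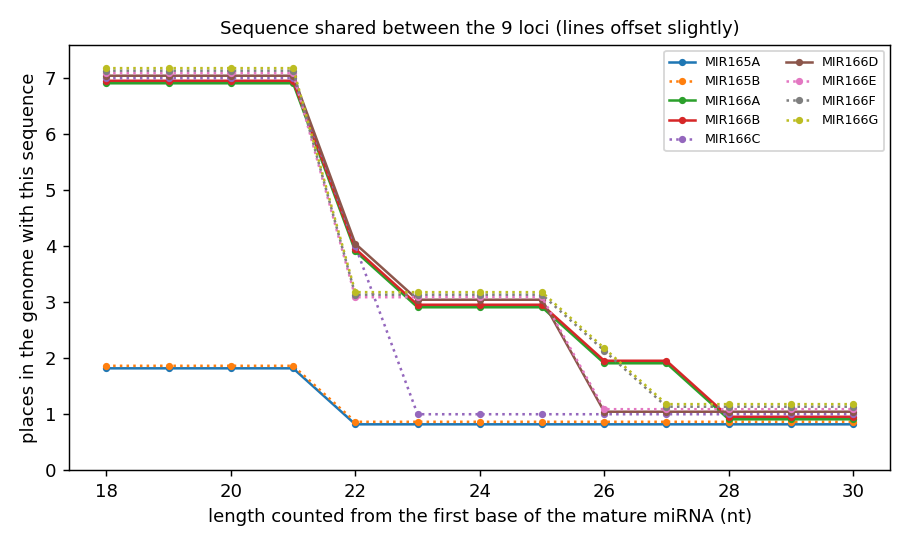
Number of places in the nuclear and organellar genome (vertical axis) that hold the sequence of each locus, by length in nt counted from the first base of the mature miRNA (horizontal axis); solid lines are the 4 loci with more than 15 reads, dotted lines the other 5. Up to 21 nt the miR166 loci share 7 places and the miR165 loci 2, and every locus is unique from 28 nt.

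The peaks lay on the mature miRNA in MIR166D and MIR165A, which held 61.6% and 34.9% of the family's reads. In MIR166D all 9 peaks began at the first base of miR166, base 87 of the precursor, and were 2 to 12 nt wide. In MIR165A all 8 peaks covered the same 3 nt, bases 86 to 88, from the first base of miR165. These starts were the same in GFP-FIB1, CFP-FIB2 and GFP libraries.

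MIR166A had 6 peaks on the mature miRNA and 1 of 5 reads on the star. In GFP-FIB1 and CFP-FIB2 libraries its 4 mature peaks began at the first base and were 2 to 17 nt wide. In GFP replicates 3 and 4 they began 1 base upstream, at base 133, and were 20 and 19 nt wide, with 198 and 52 reads. Both of these peaks are longer than the 15 nt that suffice to mark MIR166A from that base. The width of a peak is not the length of its reads, however, so their origin in MIR166A is not shown. No test was made of this difference in start, which rests on 2 GFP libraries.

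MIR166B had no peak on its mature miRNA. Its 5 peaks, in 2 GFP-FIB1, 2 CFP-FIB2 and 1 GFP libraries, all began at base 18 of the precursor, which is base 12 of the annotated star, and held 30 to 62 reads. The peak of CFP-FIB2 replicate 3 ran to base 33, past the end of the star at base 27. The star's 21 nt occur at 2 places, MIR166B and MIR166A. MIR166E had 2 peaks, both in CFP-FIB2 libraries and from the first base of its star, with 3 reads in replicate 2 and 12 in replicate 4. MIR166C had a single peak of 1 nt and 3 reads in GFP replicate 2, at base 28, within the stretch (bases 16 to 36) that faces miR166 in the predicted fold.

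Over the family, 23 of 32 peaks and 19030 of 19291 reads, 98.65% (exact 95% binomial interval 98.47 to 98.81%, counting error only), were in peaks that touched miR165 or miR166. The interval does not cover the spread between libraries. Single libraries with family reads ranged from 96.8% (GFP-FIB1 replicate 3) to 100% (GFP-FIB1 replicate 4 and GFP replicate 4), apart from GFP replicates 1 and 2. Those had 0% of 5 reads and 84.21% of 19 reads in such peaks. Most peaks touched only the first bases of the miRNA: a requirement that at least 11 of the 21 nt be covered left 32.68% of the reads in 6 peaks. Of the 32 peaks, 31 (96.9%) touched an annotated mature or star product, and 23 of these (74.2%) began at its first base. The 134 of 317 other annotated miRNA loci that had peaks had 78.6% of 384 peaks on an annotated product, 62.3% of those at its first base. Reads in such peaks were 98.9% of the reads at those loci. The difference in shares was not tested because peaks of 1 locus share their sequence and library.

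**Figure D2:**
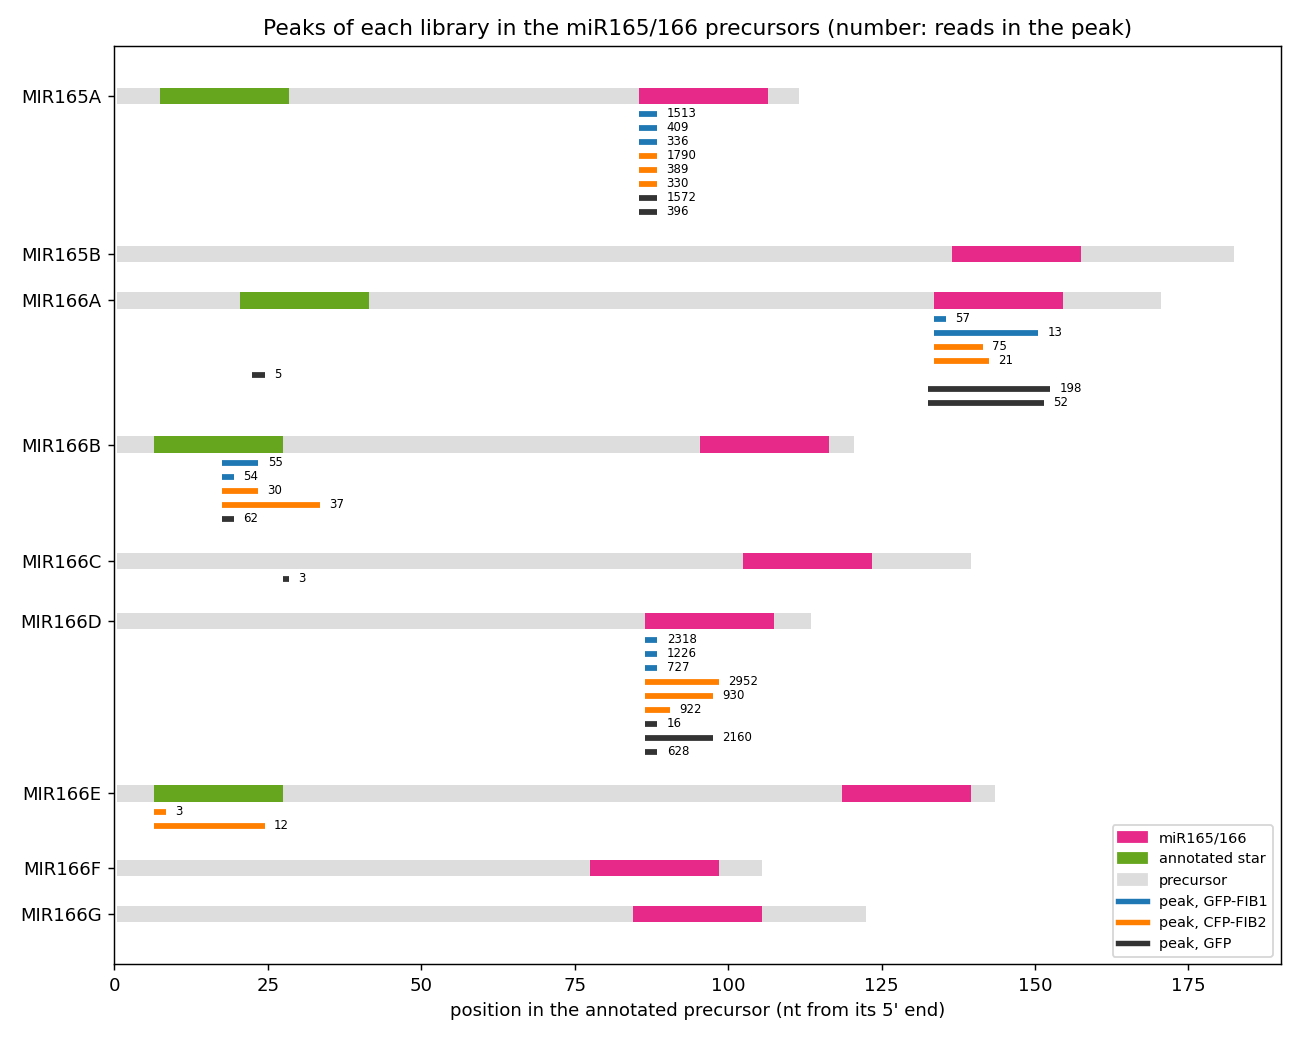
Peaks (coloured lines, 1 per library) along each precursor (grey bars; horizontal axis, nt from the 5′ end), with the mature miRNA in pink and the annotated star in green; the number beside a peak is its reads. MIR166D and MIR165A peaks begin at the first base of the miRNA in all 3 groups, MIR166B peaks at base 18 in the star, and the 2 GFP peaks of MIR166A on the miRNA begin 1 base before it.

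Before the levels, one feature of the libraries has to be stated. Over 966 protein-coding genes the libraries fell into 3 sets, found from the peak lists and not named in the labels. Set A holds GFP-FIB1 replicate 1, CFP-FIB2 replicate 1 and GFP replicates 1 and 2. Set B holds GFP-FIB1 replicate 2, CFP-FIB2 replicate 2 and GFP replicate 3, and set C the other 5 libraries. Pairs of libraries correlated at 0.71 to 0.89 within set A and at -0.48 to 0.02 between set A and the others. Reads in peaks ranged from 2811379 to 12438185 per library. The family had 24 reads in the 4 libraries of set A, 0.124% of its reads, although these libraries held 19.4% of all reads in gene peaks, and 19267 reads in the 8 libraries of sets B and C.

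That gap was shared by the other miRNA loci. They averaged 30.7 reads per 1000000 gene reads in set A (11.6 to 44.7), 1989 in set B (1862 to 2116) and 1498 in set C (782 to 2185). The family averaged 1.87 reads per 1000000 gene reads in set A (0 to 5.38), 469.1 in set B (413.9 to 530.5) and 203.6 in set C (111.8 to 300.3). In set A 7 to 14 other miRNA loci had a peak, against 31 to 49 in sets B and C. Within sets B and C the family made up 9.82 to 20% of miRNA reads. GFP has 2 of the 4 set A libraries and each fibrillarin group 1, so a mean over 4 libraries is weighted differently between the groups.

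**Figure D3:**
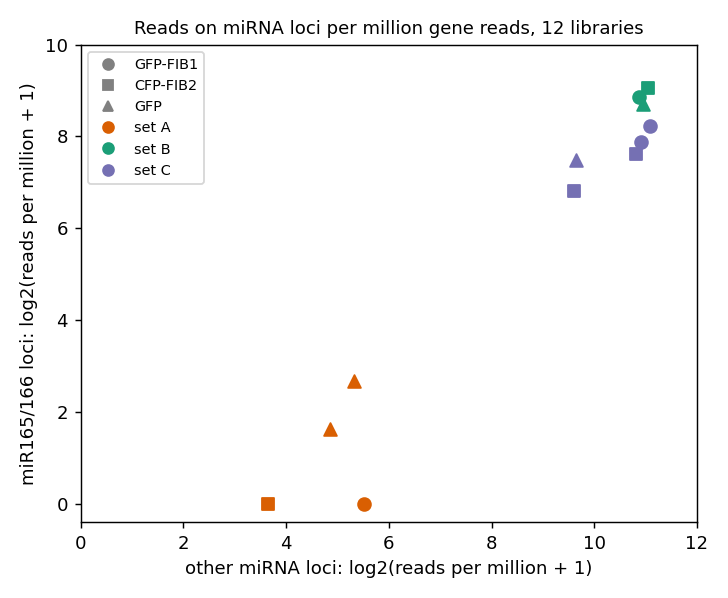
Reads of the 9 loci of miR165 and miR166 (vertical axis) against reads of other miRNA loci (horizontal axis), each as log2(reads per 1000000 gene reads + 1), 1 point per library; shape gives the group and colour the set. The 4 set A libraries lie at no more than 5.38 reads per 1000000 for the family and 44.7 for other miRNA loci, apart from the other 8, and each set holds libraries of all 3 groups.

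Levels are given as RPM: the reads in a gene's peaks as reads per 1000000 over the genes tested, after TMM scaling. A value of 0 says that no peak was listed, not that no read was present. In whole seedlings, fewer cells that hold a miRNA, less of it per cell, and less of it recovered in the immunoprecipitation or the library cannot be told apart. MIR166D had 0, 247.6, 223.2 and 148.5 RPM in GFP-FIB1 replicates 1 to 4, 0, 329.8, 110.5 and 262.8 RPM in CFP-FIB2, and 0, 2.98, 266.6 and 117.4 RPM in GFP. The low values are those of set A in every group, and the other libraries of the 3 groups overlap. MIR165A had 0, 161.6, 74.5 and 68.7 RPM in GFP-FIB1, 0, 200, 46.2 and 94.1 RPM in CFP-FIB2, and 0, 0, 194.0 and 74.0 RPM in GFP. It was highest in set B in each group, with 1513, 1790 and 1572 reads in GFP-FIB1, CFP-FIB2 and GFP. MIR166D had 1.37 to 3 times the reads of MIR165A in each of the 8 libraries of sets B and C.

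MIR166A and MIR166B, which encode the same mature miRNA as MIR166D, had far fewer reads listed under their names. Reads on the mature miRNA may belong to any miR166 locus, and the peaks of MIR166B all began within its star. MIR166A had 0, 6.09, 0 and 2.66 RPM in GFP-FIB1, 0, 8.38, 2.50 and 0 RPM in CFP-FIB2, and 1.54, 0, 24.4 and 9.72 RPM in GFP. GFP replicates 3 and 4 had the highest values of the 12 libraries, and each stood above the fibrillarin libraries of its own set. MIR166B had 0, 5.88, 9.83 and 0 RPM in GFP-FIB1, 0, 3.35, 4.40 and 0 RPM in CFP-FIB2, and 0, 0, 7.65 and 0 RPM in GFP. It was at 0 in every set A library and in 3 of 5 set C libraries. MIR166E reached 0.335 and 3.42 RPM in CFP-FIB2 replicates 2 and 4, and MIR166C 0.559 RPM in GFP replicate 2; each was at 0 elsewhere.

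Per length of precursor the order of the loci over the 12 libraries was MIR166D (mean 126.1 RPM per 100 nt), MIR165A (68.6), MIR166A (2.71), MIR166B (2.16), MIR166E (0.219) and MIR166C (0.0335). This order follows the locus under which each peak was listed, which for reads on the mature miRNA need not be the locus of origin. MIR166D and MIR165A stood apart from the rest in every library of sets B and C, while MIR166A and MIR166B changed places between libraries. In group means, MIR166D was at 154.8 ± 111.5 RPM in GFP-FIB1, 175.8 ± 148.8 in CFP-FIB2 and 96.8 ± 125.8 in GFP (SD, n = 4 each). MIR165A was at 76.2 ± 66.2 RPM in GFP-FIB1, 85.1 ± 85.7 in CFP-FIB2 and 67.0 ± 91.6 in GFP. Summed over the 9 loci, the family was at 237.1 ± 178.3 RPM in GFP-FIB1, 266.4 ± 235.4 in CFP-FIB2 and 174.8 ± 231.8 in GFP. In GFP the SD exceeded the mean in each of these. CFP-FIB2 replicate 4 had the lowest TMM factor, 0.311 against 0.849 to 1.54 in the other libraries; its family sum was 360.3 RPM, and 111.8 reads per 1000000 gene reads without the factor.

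**Figure D4:**
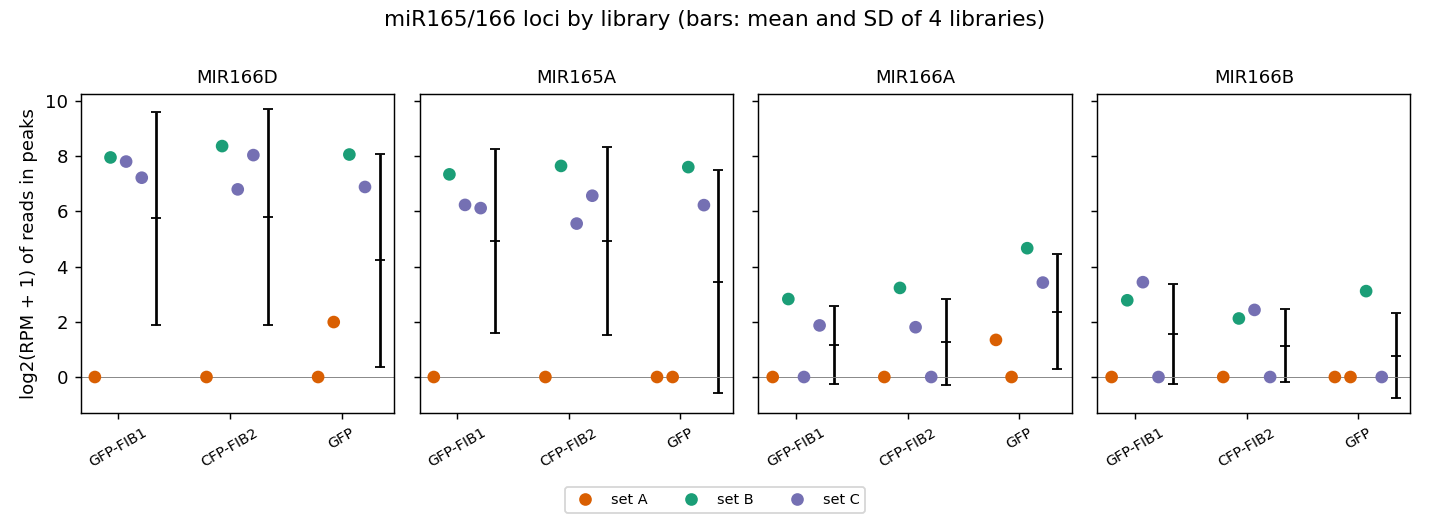
log2(RPM + 1) of the 4 loci tested (vertical axis) in each library of GFP-FIB1, CFP-FIB2 and GFP, coloured by set; the bar beside each group is its mean and SD over 4 libraries. Set A libraries lie at or near 0 in every group, and MIR166A is highest in GFP within sets B and C.

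Whether reads at these loci were recovered with the fibrillarin fusions beyond GFP alone was asked in 1 limma fit of 19545 genes. Of the family's reads 98.65% were in peaks that touched the mature miRNA, and the peaks of MIR166B began within its star. Peak widths do not give read lengths, so the fit does not tell reads of precursors from reads of mature miRNAs. MIR165A, MIR166A, MIR166B and MIR166D passed its filter on low values; MIR166C and MIR166E had too few reads and the other 3 loci none. In GFP-FIB1 over GFP none of the 4 was called at an adjusted p under 0.05 and none was called in either direction at an unadjusted p under 0.05, where 0% of all genes were called by the first rule, and 1.8% higher and 0.993% lower by the second. The log2 fold change was 1.51 ± 2.10 (SE; 95% interval -2.90 to 5.93) for MIR166D and 1.47 ± 1.95 (-2.63 to 5.56) for MIR165A. It was -1.19 ± 0.977 (-3.24 to 0.87) for MIR166A and 0.78 ± 0.904 (-1.12 to 2.68) for MIR166B. The adjusted p of limma was 1 for all 4. For MIR166D and MIR165A the intervals hold changes of several fold either way.

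CFP-FIB2 over GFP gave the same picture with the same GFP libraries. The log2 fold changes were 1.57 ± 2.10 for MIR166D, 1.49 ± 1.95 for MIR165A, -1.10 ± 0.977 for MIR166A and 0.36 ± 0.904 for MIR166B, each with an adjusted p of 1 by limma. None of the 4 was called, by the adjusted rule (0% of all genes) or the unadjusted one (1.94% higher, 0.471% lower). In GFP-FIB1 over CFP-FIB2 they were -0.06 ± 2.10, -0.02 ± 1.95, -0.09 ± 0.977 and 0.42 ± 0.904 for MIR166D, MIR165A, MIR166A and MIR166B, with an adjusted p of 1 by limma and none called (0% of all genes; unadjusted 0.455% higher and 0.655% lower). The interval for MIR166D was -4.47 to 4.36, so the paralogs are not shown to be alike at this locus. In no comparison did the groups' 4 values lie apart at any of the 4 loci; over all genes this was so for 0.895% higher and 0.916% lower in GFP-FIB1 over GFP, 1.26% and 0.553% in CFP-FIB2 over GFP, and 0.45% and 0.558% in GFP-FIB1 over CFP-FIB2.

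The medians over the 4 loci were 1.12 for GFP-FIB1 over GFP, 0.92 for CFP-FIB2 over GFP and -0.04 for GFP-FIB1 over CFP-FIB2, with 3, 3 and 1 of 4 above 0, beside 0.08, 0.12 and -0.05 over all genes. The 25 other miRNA loci that passed the filter had medians of 1.34, 1.42 and 0.02, with 21, 23 and 13 above 0. With the set of libraries as a term in the fit, MIR166D was at -0.22 ± 0.582 and -0.16 ± 0.582 and MIR165A at -0.07 ± 0.484 and -0.06 ± 0.484 in GFP-FIB1 and CFP-FIB2 over GFP. MIR166A then stood at -1.57 ± 0.592 in GFP-FIB1 over GFP (adjusted p = 0.485, limma) and -1.49 ± 0.592 in CFP-FIB2 over GFP (adjusted p = 0.665, limma), and was the only locus of the 4 past the unadjusted threshold in either. In that fit 3.34% of all genes were higher and 4.25% lower at an unadjusted p under 0.05 in GFP-FIB1 over GFP, and 3.27% and 2.88% in CFP-FIB2 over GFP; 0.629% and 0.496% were called after adjustment. In GFP-FIB1 over CFP-FIB2 no locus passed either threshold, where 2.03% of all genes were higher and 2.5% lower, and 0.00512% were called after adjustment.

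**Figure D5:**
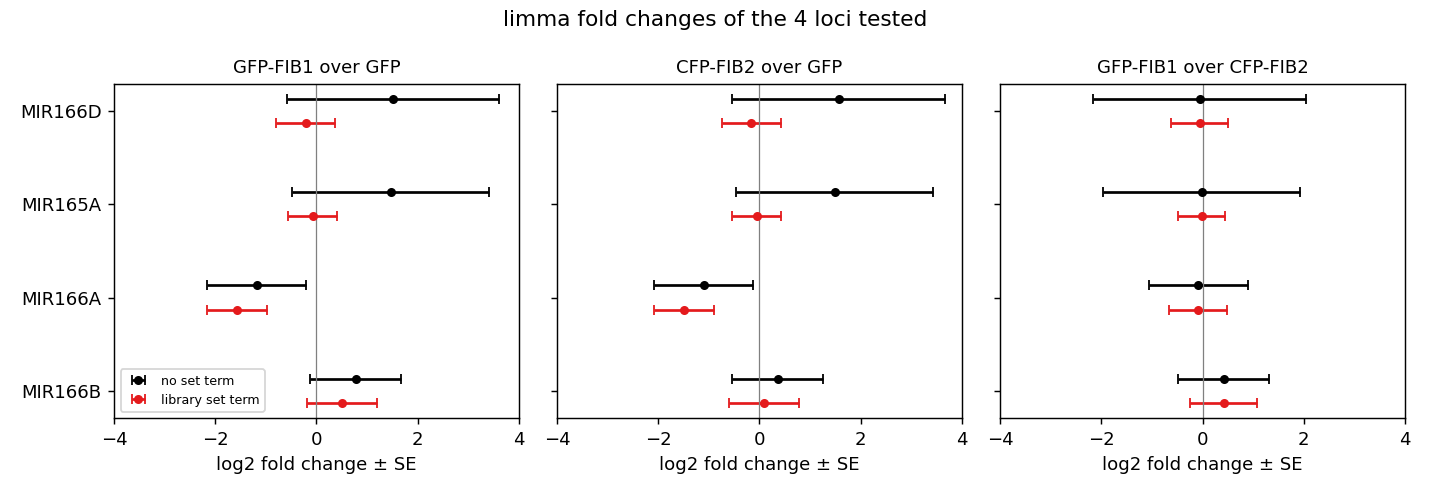
limma log2 fold change (horizontal axis) with its SE for the 4 loci tested, in GFP-FIB1 over GFP, CFP-FIB2 over GFP and GFP-FIB1 over CFP-FIB2, without (black) and with (red) the set of libraries as a term. With the term MIR166D and MIR165A lie within 0.22 of 0 in all 3 comparisons, and MIR166A at -1.57 and -1.49 over GFP.

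The targets of miR165 and miR166 were looked at next. The HD-ZIP III mRNAs carry the pairing site across a splice junction, after base 11 of the 21; capitals mark the bases that pair with miR166 by the usual base pairs, so that lower case marks the mismatches. The sites span chr2:14642530-14642666 in PHB (PHABULOSA), chr1:10799330-10799445 in PHV (PHAVOLUTA), chr5:24398787-24398898 in REV (REVOLUTA), chr4:15866872-15866974 in ATHB8 and chr1:19412976-19413085 in ATHB15, intron included.
PHB and PHV: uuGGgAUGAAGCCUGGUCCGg
REV and ATHB8: cuGGgAUGAAGCCUGGUCCGg
ATHB15: cuGGAAUGAAGCCUGGUCCGg
Against miR166 there were 4 mismatches in PHB, PHV, REV and ATHB8 and 3 in ATHB15, with a G facing a U counted as a mismatch. Pairing with miR165, which differs from miR166 at base 17, was not scored, so the counts do not hold for it.

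All 5 HD-ZIP III genes had peaks and passed the filter, and none was called, adjusted or unadjusted, in any comparison. Of all genes 0% were called after adjustment, and 0.455 to 1.94% per direction and comparison at an unadjusted p under 0.05. Their median log2 fold changes were 0.36 in GFP-FIB1 over GFP, 0.65 in CFP-FIB2 over GFP and -0.11 in GFP-FIB1 over CFP-FIB2, with 3, 3 and 2 of 5 above 0. REV, which sets organ polarity with PHB and PHV, had the most reads, 992, at 13.2 ± 10.3 RPM in GFP-FIB1, 13.1 ± 5.84 in CFP-FIB2 and 9.75 ± 7.74 in GFP (SD, n = 4 each). None of its 44 peaks touched the site. Peaks did so in PHB (3 peaks, 57 reads), PHV (1 peak, 8 reads) and ATHB15 (1 peak, 4 reads), and not in ATHB8. Within 25 nt of the PHB site there were 4 peaks, 1 in each library of set A: 23 reads in GFP-FIB1 replicate 1, 54 in CFP-FIB2 replicate 1, and 7 and 27 in GFP replicates 1 and 2. The peaks of GFP-FIB1 replicate 1 and of GFP replicates 1 and 2 touched the PHB site, and that of CFP-FIB2 replicate 1 did not. The site peak of PHV was in GFP-FIB1 replicate 2 and that of ATHB15 in GFP replicate 4, libraries of sets B and C. These site peaks were not tested.

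Proteins that make and use miRNAs were a second list, and 12 of its 12 mRNAs passed the filter: DCL1, HYL1, SE, HEN1, HST, CBP20, ABH1, TGH, DDL, CPL1, AGO1 and AGO10. None was called, adjusted or unadjusted, where 0% of all genes were called after adjustment and 0.455 to 1.94% per direction and comparison without it. The medians were -0.48 in GFP-FIB1 over GFP, -0.09 in CFP-FIB2 over GFP and -0.32 in GFP-FIB1 over CFP-FIB2, with 4 of 12 above 0 in each. HYL1, the double-stranded RNA-binding partner of DCL1, had the most reads, 11089. Its level was 165.9 ± 85.9 RPM in GFP-FIB1, 133.2 ± 132.4 in CFP-FIB2 and 143.9 ± 172.3 in GFP (SD, n = 4 each), and in set A it did not exceed 43.3 RPM. ABH1, the large subunit of the nuclear cap-binding complex, was the only gene of the list whose groups lay apart in a comparison, at 8.69 ± 0.767 RPM in GFP-FIB1 and 5.59 ± 1.46 in CFP-FIB2 (SD, n = 4 each; limma adjusted p = 1), where 0.45% of all genes lay apart and higher in that comparison; the 12 genes were looked at in 3 comparisons. Little zipper genes, whose small proteins bind HD-ZIP III proteins, had few reads: none of 4 passed the filter, and ZPR3 had the most, 59. The green tissue markers summed to 86.6 to 686.5 RPM in GFP-FIB1, 122.9 to 568.7 in CFP-FIB2 and 57.6 to 310.7 in GFP, all 5 above 0 in log2 fold change over GFP and none called. Of all genes 54.6% were above 0 in GFP-FIB1 over GFP and 57.8% in CFP-FIB2 over GFP. Root markers summed to 16.9 to 27.7 RPM in GFP-FIB1, 25.1 to 41.7 in CFP-FIB2 and 21.7 to 41.6 in GFP. Of the 4 root markers tested, 1 and 2 were above 0 in these comparisons, and none was called. The groups hold unequal numbers of set A libraries, which weighs on these values too. The part of the markers in the miRNA values was not tested.

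The 5 genes whose levels followed the family most closely were mostly miRNA loci as well. Over 2977 genes with a mean of at least 10 RPM, the 5 with the highest Pearson correlation to the family sum over 12 libraries, on the log2(RPM + 1) scale, were MIR396b (0.991), AT5G49610 (0.988), MIR158a (0.987), MIR159b (0.985) and MIR396a (0.983). In the 8 libraries of sets B and C the same genes were at 0.865, 0.473, 0.893, 0.896 and 0.744, and 203 genes exceeded 0.9 over 12 libraries. Among the members, MIR165A and MIR166D correlated at 0.984 over 12 libraries and 0.842 over 8. MIR166A followed MIR166D at 0.548 and 0.042, although both encode miR166. Libraries share depth and set in these values, which describe likeness only.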

How the data were processed

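RNA crosslinked in seedlings was sequenced from 12 libraries in 3 groups of 4, grouped by the titles. The authors deposited 1 peak list per library, each line with a region, strand, name and the authors' own p-value, at most 0.05. The name ends in a whole number of at least 3, deposited without explanation and read here as the reads (counts) in the peak, a score of the peak; no count model was run on it. Peaks were called per library. The authors' processing notes, as the submitters gave them, name DESeq2 with no role or version; the sources used here give no aligner, caller, build or duplicate removal. Molecular identifiers are not mentioned, so intervals cover counting error only, and total depth is unknown. Of the gene-named peaks whose locus is in RefSeq TAIR10.1, 99.914% lay inside its bounds, so its coordinates and sequences were used.

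Where peaks of a library overlapped, the peak with most reads was kept (0.396% removed, none at the 9 loci). Reads per gene became RPM with TMM factors (trims of 30% and 5%) and log2(RPM + 1), which understates changes of low genes. Genes needed 10 reads at median depth in 4 libraries and 15 in all. limma 3.58.1 (R 4.3.3; mean-variance trend, all 12 libraries, Benjamini-Hochberg over 19545 genes, two-sided) gave fold changes; p-values measure the spread between libraries, which may be technical. The fit was tested on simulated data with changes in GFP-FIB1 only and without library sets, so that test does not cover differences between sets. RNAfold 2.7.2 gave the folds, and Python 3.11.15 with pandas 2.3.3, scipy 1.17.1 and matplotlib 3.10.9 the rest. Alternatives were library totals, a pseudocount of 0.25, no filter, all deposited peaks, the replicate number as a block, the set of libraries as a term, and each library left out. The members and lists were chosen with earlier results of these data known. All 9 loci are named; from a list, the gene with most reads or an unadjusted p under 0.05 is, with ABH1, the site counts and the members of a list named after their values were seen. Replicate numbers did not pair the libraries across all 3 groups. GFP-FIB1 and CFP-FIB2 libraries of the same number fell in the same set, but GFP replicates 2 and 3 fell in other sets than theirs.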

Additional observations from a re-analysis of the deposited data

Results flagged for a closer look

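In 3 groups of 4 libraries 1 library lay far from the other 3. A locus with a listed peak in 1 library of a group and 0 in the others always does so, as MIR166B and MIR166C did in GFP, so the usual chance rate of such gaps, about 1 in 20 groups, does not apply to them. MIR166E was at 3.42 RPM in CFP-FIB2 replicate 4 (12 reads), with 0 to 0.3352 RPM in the other CFP-FIB2 libraries. MIR166B was at 7.653 RPM in GFP replicate 3 (62 reads), with 0 in the other GFP libraries. MIR166C was at 0.5585 RPM in GFP replicate 2 (3 reads), with 0 in the other GFP libraries. A library without a listed peak counts as 0 in each case.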

How the results depend on the processing

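Of the 4 tested loci, none was called after adjustment in any comparison under any alternative; 205 of the values under alternatives kept the direction and 23 turned it. With library totals in place of TMM, GFP-FIB1 over CFP-FIB2 was 0.387 for MIR165A and 0.355 for MIR166D; the TMM factor of CFP-FIB2 replicate 4, 0.311, was the lowest (0.849 to 1.54 elsewhere). With the set of libraries as a term, MIR165A was at -0.074 and MIR166D at -0.216 in GFP-FIB1 over GFP, and at -0.055 and -0.16 in CFP-FIB2 over GFP; 123, 97 and 1 genes were called in GFP-FIB1 over GFP, CFP-FIB2 over GFP and GFP-FIB1 over CFP-FIB2, against 0 without it. Without the 4 libraries of set A, chosen after seeing the data, MIR165A was at -0.267 and -0.196 over GFP, MIR166D at 0.27 and 0.39 over GFP, MIR166B at 0.546 in GFP-FIB1 over GFP and -0.014 in CFP-FIB2 over GFP, and 4 and 1 genes were called. MIR166A was then at -2.339 in GFP-FIB1 over GFP and -2.234 in CFP-FIB2 over GFP, against -1.185 and -1.1 with all libraries. Both values passed an unadjusted p of 0.05 by limma, and neither was called after adjustment. Of 18763 genes in that fit, 983 and 921 passed the unadjusted threshold in these comparisons, in either direction. With all deposited peaks 1 and 1 genes were called over GFP. The cause was not tested for any of these.

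The replicate numbers did not pair the libraries across all groups, although GFP-FIB1 and CFP-FIB2 libraries of the same number shared a set. Same-numbered libraries correlated at -0.41 to 0.86, 10 of 12 pairs over 0.1, and 6 of 12 libraries were closest to their own number. A replicate block called 123 and 110 genes over GFP and 0 in GFP-FIB1 over CFP-FIB2, and no member.

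Leaving out 1 library called 0 to 4 genes in GFP-FIB1 over GFP (4 without GFP-FIB1 replicate 1, 1 without GFP replicate 4) and 0 to 0 in the other comparisons. In GFP-FIB1 over GFP the ranges were 0.314 to 3.07 for MIR165A, -1.95 to -0.433 for MIR166A, 0.136 to 1.534 for MIR166B and 0.103 to 3.375 for MIR166D. In CFP-FIB2 over GFP they were 0.332 to 3.134, -1.869 to -0.36, -0.062 to 1.108 (below 0 without CFP-FIB2 replicate 3) and 0.157 to 3.498 for the loci in the same order. In GFP-FIB1 over CFP-FIB2 they were -1.664 to 1.615, -0.608 to 0.574, -0.203 to 0.927 and -1.986 to 1.852. Asking for at least 11 of 21 nt moved the share of reads on miR165 or miR166 to 32.68%, by requiring wide peaks. MIR166C and MIR166E, with 3 and 15 reads, were too low to be tested.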

Other observations

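Within 200 nt of the 9 precursors there were 27 peaks under other names, none inside a precursor, with 3 to 12 reads each. Of these, 9 were on the strand of the precursor and 18 on the opposite one, 4 of them named AT1G08765 beside MIR165A. MIR165A peaks carry the numbers 4 to 7 in their names although 1 peak of the locus is listed per library, whereas all MIR166D peaks carry number 1. How the authors numbered peaks is not given in the sources used here.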
